A study of Homo sapiens with 6 samples.

Results

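The DNAJ genes encode the J-domain proteins, also called HSP40 co-chaperones. The 37 members described here were listed by name, 4 DNAJA, 9 DNAJB and 24 DNAJC genes, and each matched 1 of the 60660 gene IDs in the deposited tables. All 37 passed the filter on low values that left 28015 genes to test. The RNA came from the leukaemia cell line OCI-AML3, a long-established line of human acute myeloid leukaemia. There were 3 libraries of cells carrying the empty vector pLenti and 3 of cells overexpressing SLC2A3, the gene of the glucose transporter GLUT3. All 6 libraries came from cells given 250 µM vitamin C. The empty vector cells were thus treated too, and no library without the vitamin is analysed here. The labels do not say which promoter drove SLC2A3, whether the lines were clones, or whether the replicates were separate cultures.

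J-domain proteins bring unfolded clients to HSP70 and, through the J domain, make HSP70 hydrolyse ATP and close on the client. Nucleotide exchange factors then release ADP, and the cycle starts again. Class A and class B members resemble the bacterial protein DnaJ in the order of their domains, whereas class C members share little beyond the J domain and mostly serve 1 compartment or task each. Some class A and B genes are heat-inducible through the transcription factor HSF1, which binds inverted repeats of GAA, the heat shock element. Genes of the endoplasmic reticulum (ER) members can instead be driven by the unfolded protein response.

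DNAJB1 was the 1 member that passed the test, so the stretch upstream of 1 of its starts is shown. Beside it are DNAJA4, which carries the same pair of 8-letter heat shock matches, and DNAJB6, which carries a longer match and did not pass. The sequences are RefSeq promoter windows on GRCh38.p14, trimmed to the part that holds no annotated exon, written 5′ to 3′ on the gene's strand. Capitals mark matches to GAANNTTC or TTCNNGAA, the 2-unit heat shock elements in either order. DNAJB1 lies at chr19:14518421-14518647 on the minus strand, DNAJA4 at chr15:78264394-78264543 and DNAJB6 at chr7:157336774-157336965, both on the plus strand.
DNAJB1: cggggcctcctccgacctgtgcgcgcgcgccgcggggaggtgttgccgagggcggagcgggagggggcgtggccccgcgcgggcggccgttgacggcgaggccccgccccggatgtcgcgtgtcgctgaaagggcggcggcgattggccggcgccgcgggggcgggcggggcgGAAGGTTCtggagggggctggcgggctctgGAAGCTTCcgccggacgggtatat
DNAJA4: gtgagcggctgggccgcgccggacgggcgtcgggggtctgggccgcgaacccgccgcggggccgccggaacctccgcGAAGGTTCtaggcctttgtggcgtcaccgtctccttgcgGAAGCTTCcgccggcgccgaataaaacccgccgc
DNAJB6: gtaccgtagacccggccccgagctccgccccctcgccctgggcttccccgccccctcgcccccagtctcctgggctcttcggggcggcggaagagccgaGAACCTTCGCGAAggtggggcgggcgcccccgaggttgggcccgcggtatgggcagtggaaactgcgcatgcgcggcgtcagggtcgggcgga

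In the DNAJB1 window shown, the matches began 77 and 47 bases before the transcription start. Another DNAJB1 window, from chr19:14517888, held 1 match, at position 2 from its own start. In DNAJA4 the matches began 91 and 52 bases before the start. In DNAJB6 a pair of overlapping matches, 131 and 126 bases before the start, formed the 3-unit element GAANNTTCNNGAA. Windows of 300 bases were found for 34 of the 37 members, 45 windows in all. On both strands, GAANNTTC was present in 6.77% of all 35116 RefSeq windows and in 4 member genes, DNAJA1, DNAJA4, DNAJB1 and DNAJB6. TTCNNGAA was present in 7.74% of windows and in the member genes DNAJA1, DNAJB4, DNAJB6 and DNAJC15, so that 6 of 34 members held either order. Counted by window, that was 7 of 45 member windows, or 15.6%, against 13.5% of all windows. The 3-unit element was in 0.490% of windows and in DNAJA1 and DNAJB6 among the members. The ER stress element, CCAAT followed after 9 bases by CCACG, was in 0.0769% of windows and in 0 members. These matches are letters in a window and were not measured as binding sites.

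The libraries held 31054462 to 35770556 reads recovered from the deposited values, and normalised reads below are those counts divided by the authors' factor per library. SLC2A3 stood at 1194, 1183 and 1257 normalised reads with the empty vector and at 4056, 3716 and 4054 with SLC2A3, a log2 change of 1.70 (SE 0.057). Of 8 myeloid markers 7 had a group mean of at least 100 normalised reads and KIT was near 0, while MS4A1, HBA1 and HBB were at 0. Of the other markers described here, 0 passed the test. Summed fibroblast markers stood at 8.15 to 29 normalised reads with the empty vector and 24.6 to 74.8 with SLC2A3, and their part in the results was not tested. The noncoding RNA RN7SL1 stood at 538, 1812 and 705 against 2233, 6026 and 1922 normalised reads, with the library numbered 2 highest in each group. RN7SL1 passed the test, with a log2 change of 1.74 (limma adjusted p = 0.000861). In limma, 418 of the 28015 tested genes passed an adjusted p of 0.05, which is 1.49%, and 0.692% passed upwards. The groups did not overlap for 16.3% of tested genes.

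Against that background, 1 of the 37 DNAJ genes rose with SLC2A3, 0 fell and 36 did not pass. The median log2 change was 0.01 over the members and 0.00 over all tested genes. It was above 0 for 21 members and below 0 for 16, against 14080 and 13935 of all tested genes. The groups did not overlap for 10 members, 8 higher and 2 lower, which is 27.0% of the family. Most members are well expressed: 34 had a mean over all 6 libraries of at least 100 normalised reads, and of these 9 did not overlap. Among all 11730 tested genes with such a mean, 23.7% did not overlap and 3.45% passed the limma test, so the family's share without overlap was near that of genes of like level. Unadjusted limma p-values were under 0.05 for 11 of the 37 members, 9 higher and 2 lower, against 11.8% of all tested genes and 19.9% of those with such a mean. The summed DNAJ signal was 63094 to 64839 normalised reads with the empty vector and 64627 to 66279 with SLC2A3, so the groups' sums overlapped. In bulk RNA, fewer cells of a kind and less RNA per cell cannot be told apart.

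**Figure D1:**
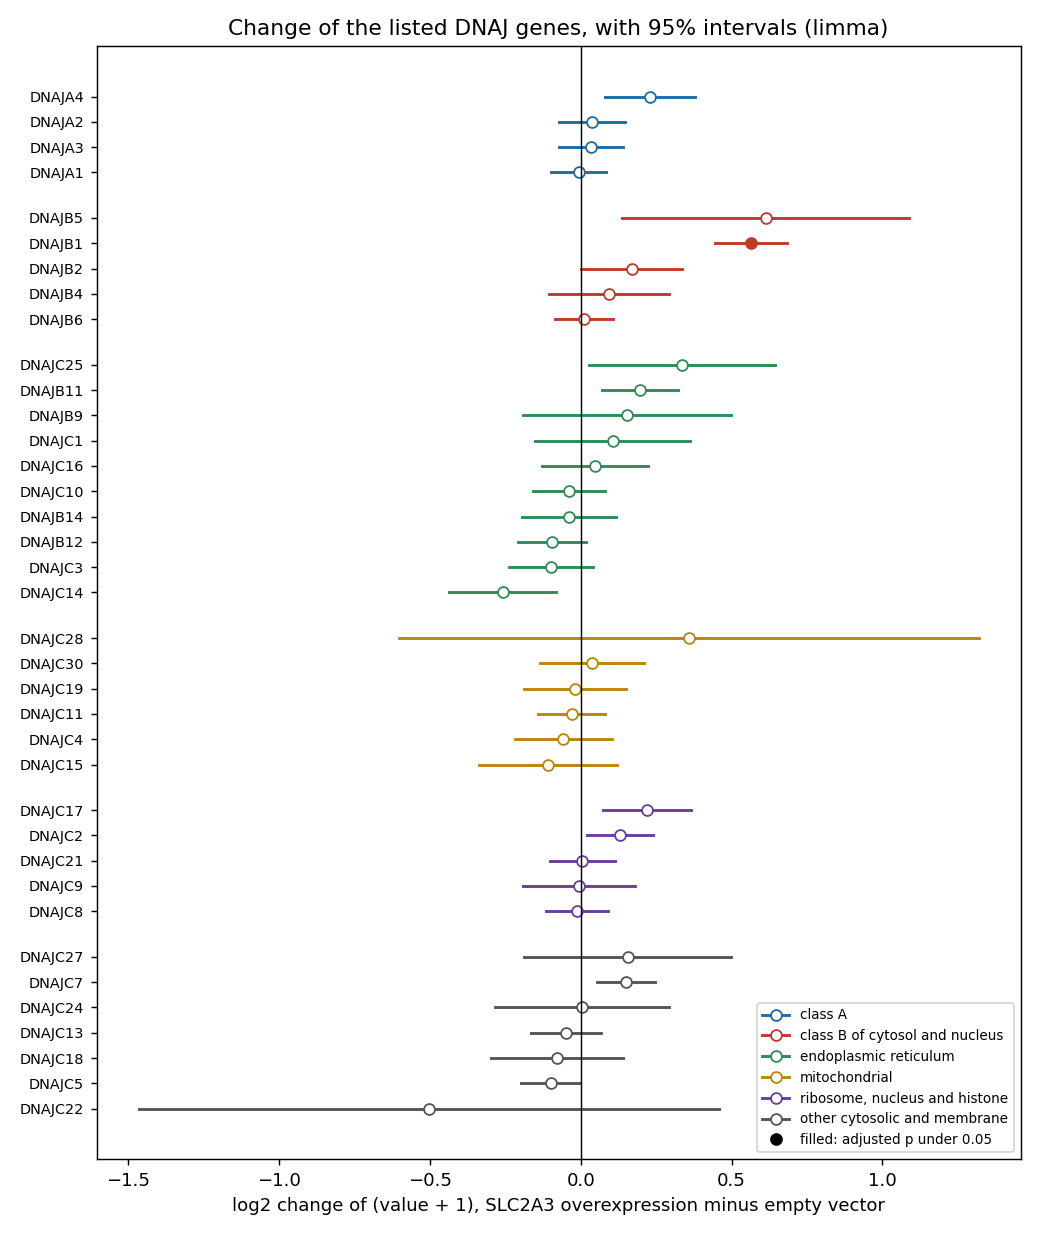
Log2 change of normalised reads plus 1, SLC2A3 overexpression minus empty vector, for each of the 37 DNAJ genes with its 95% interval from limma, coloured by role group. DNAJB1, at 0.56, is the 1 filled point, and the widest intervals belong to the low-read genes DNAJC22 and DNAJC28.

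DNAJB1 encodes the classical heat-inducible HSP40, the class B co-chaperone of cytosolic HSP70 and HSC70 in refolding and disaggregation. Its gene (ENSG00000132002.9) spans 14514770 to 14529770 on the minus strand of chromosome 19 in GENCODE 29. The empty vector libraries held 2015, 2096 and 2206 normalised reads and the SLC2A3 libraries 3371, 2903 and 3082. Every SLC2A3 library was above every empty vector library, and the lowest of them exceeded the highest empty vector library by more than the range of the empty vector group. DNAJB1 thus rose 1.48-fold, from 2106 ± 95.8 to 3119 ± 236 normalised reads (SD, n = 3 per group; log2 change 0.56, SE 0.059, 95% interval 0.44 to 0.69, limma adjusted p = 1.07e-06). Over the 17 alternatives its log2 change lay between 0.51 and 0.62, and its highest adjusted p in limma, edgeR or DESeq2 was 0.000452. The log2 change was 0.61 without both libraries numbered 2, the highest in RN7SL1 in each group. In the libraries that remained RN7SL1 still differed by group, at 538 and 705 against 2233 and 1922 normalised reads. Whether the DNAJB1 change goes with RN7SL1 was not tested. TECR overlaps DNAJB1 on the opposite strand, and named DNAJB1 pseudogenes held 0.0386% as many reads as the gene.

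The 36 other members were compared with DNAJB1 by their intervals. For 30 of them the upper 95% limit lay below 0.44, the lower limit of DNAJB1. For 20 of them the whole interval lay within 1.2-fold either way, and for the remaining 16 it reached past 1.2-fold, so that these libraries leave room for a change of that size. The standard error of the log2 change ran from 0.0448 for the best measured members to 0.469 for those with the fewest reads.

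The other class B members of cytosol and nucleus did not pass. DNAJB5, a low-level relative of DNAJB1, held 54.0, 53.0 and 47.1 normalised reads with the empty vector and 75.2, 81.5 and 80.1 with SLC2A3. Its groups did not overlap and its log2 change of 0.61 had an interval of 0.14 to 1.09, which contains that of DNAJB1, but its limma adjusted p was 0.241. DNAJB2, a ubiquitin-binding member best known from neurons, held 671, 704 and 796 against 857, 817 and 763 normalised reads, and its groups overlapped (log2 change 0.17, limma adjusted p = 0.420). DNAJB4 had a log2 change of 0.09. DNAJB6, which keeps aggregation-prone proteins soluble, held 5481, 5050 and 5333 against 5193, 5319 and 5464 normalised reads. Its log2 change of 0.01 had an interval of -0.08 to 0.11. The DNAJB6 window holds the 3-unit element shown above, whose activity was not tested. All 5 members of this group had a log2 change above 0, with a median of 0.17, and so had 14080 of the 28015 tested genes. The sign of DNAJB6 was not stable, at -0.022 without empty vector replicate 2.

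Among the 4 class A genes 0 passed and the median log2 change was 0.04. DNAJA1, the main class A partner of cytosolic HSC70, held 6398, 5994 and 6081 normalised reads with the empty vector and 6129, 6306 and 5943 with SLC2A3. The groups overlapped, and the interval of its log2 change was -0.10 to 0.08. DNAJA2, also cytosolic, and DNAJA3, the mitochondrial class A protein, had log2 changes of 0.04 and 0.03. DNAJA4 held 1115, 944 and 1024 against 1231, 1128 and 1250 normalised reads, so its groups did not overlap. Its log2 change was 0.23 with an interval of 0.08 to 0.38 and a limma adjusted p of 0.132, below the change of DNAJB1. The windows shown for DNAJA4 and DNAJB1 both carry GAAGGTTC and GAAGCTTC, the 8 letters of each match. Whether these matches play a part in either change was not tested. SKIC8 overlaps DNAJA4 on the opposite strand.

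**Figure D2:**
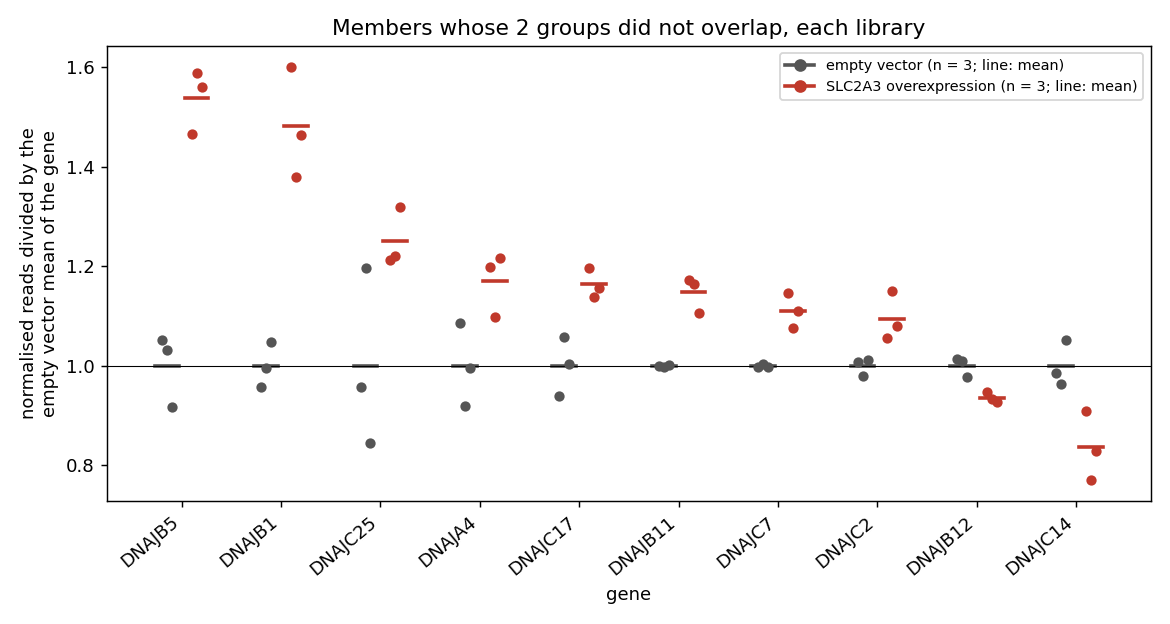
Normalised reads of each library divided by the gene's empty vector mean, for the 10 DNAJ genes whose groups did not overlap, with 3 points and a mean line per group. DNAJB5 and DNAJB1 stand furthest above 1 in the SLC2A3 libraries, and DNAJB12 and DNAJC14 lie below 1.

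Of the 10 members assigned to the ER 0 passed in limma, and the median log2 change was 0.00, with 5 above 0 and 5 below. DNAJB11, also called ERdj3, is a soluble partner of the ER HSP70 protein BiP. It held 1320, 1316 and 1323 normalised reads with the empty vector and 1547, 1535 and 1460 with SLC2A3. The empty vector libraries were nearly equal and all SLC2A3 libraries were above them. The level went from 1320 ± 3.24 to 1514 ± 47.2 normalised reads, 1.15-fold (SD, n = 3 per group; log2 change 0.20, SE 0.061, limma adjusted p = 0.121). DESeq2 on the recovered reads gave DNAJB11 an adjusted p of 0.0358, and over all alternatives but that its lowest adjusted p was 0.0788 and its highest 0.299. TBCCD1 and HRG-AS1 overlap it on the opposite strand.

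DNAJC14, an ER membrane protein, stood lower with SLC2A3, at 610, 517 and 556 against 661, 646 and 705 normalised reads. The groups did not overlap (log2 change -0.26, 95% interval -0.44 to -0.08, limma adjusted p = 0.153), and an unnamed gene shares its strand and position. DNAJB12, an ER membrane protein whose J domain faces the cytosol, held 2185, 2180 and 2107 against 2043, 2013 and 2002 normalised reads. Its groups did not overlap either, and the log2 change was -0.10 (limma adjusted p = 0.539). DNAJB14, its close relative, had a log2 change of -0.04 and overlapping groups. DNAJC25 held 150, 187 and 132 against 189, 191 and 206 normalised reads, a log2 change of 0.33 with an interval of 0.03 to 0.64 (limma adjusted p = 0.365). The remaining ER members, all with overlapping groups, were DNAJB9 (ERdj4), an inducible BiP co-chaperone, at 0.15 on the log2 scale, DNAJC1 at 0.11, DNAJC16 at 0.05, the disulphide reductase DNAJC10 at -0.04 and the BiP co-chaperone DNAJC3 at -0.10.

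The 6 members assigned to mitochondria had overlapping groups in every case and a median log2 change of -0.02. DNAJC19, of the protein import motor, held 595, 591 and 580 normalised reads with the empty vector and 587, 591 and 565 with SLC2A3. These libraries were nearly equal, with an interval of -0.19 to 0.15 for the log2 change. Named pseudogenes held 2.38% as many reads as DNAJC19, the highest such share in the family. DNAJC15, a relative of DNAJC19 at the import channel, had a log2 change of -0.11, which was 0.03 without both libraries numbered 2. DNAJC11, of the inner membrane organising machinery, had -0.03, DNAJC4 had -0.06 and DNAJC30 had 0.04. DNAJC28 held 21.4, 10 and 25 against 30.6, 35.5 and 10.7 normalised reads, and the interval of its log2 change, -0.60 to 1.32, spans 0.

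Of the 5 members of ribosome, nucleus and histone handling 0 passed, and the median log2 change was 0.00. DNAJC2, which binds the ribosome with the HSP70-like protein HSPA14 and also acts on chromatin, held 2597, 2526 and 2610 against 2721, 2964 and 2782 normalised reads. Its groups did not overlap, but the limma adjusted p was 0.293 for a log2 change of 0.13. DNAJC17, a splicing-linked protein, held 862, 970 and 922 against 1099, 1045 and 1062 normalised reads, also without overlap (log2 change 0.22, limma adjusted p = 0.138). GCHFR, ZFYVE19 and C15orf62 overlap DNAJC17 on the opposite strand. The spliceosomal DNAJC8, the histone chaperone DNAJC9 and DNAJC21, a factor of large ribosomal subunit maturation, had log2 changes of -0.01, -0.01 and 0.00.

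Of the 7 other cytosolic and membrane members 0 passed in limma, and the median log2 change was -0.05. DNAJC7, a tetratricopeptide protein that links HSP70 and HSP90, held 4158, 4186 and 4162 normalised reads with the empty vector and 4779, 4485 and 4626 with SLC2A3. All SLC2A3 libraries were above all empty vector libraries. The level went from 4169 ± 15.5 to 4630 ± 147 normalised reads, 1.11-fold (SD, n = 3 per group; log2 change 0.15, SE 0.047, limma adjusted p = 0.116). DESeq2 gave DNAJC7 an adjusted p of 0.0142, and over all alternatives but that its lowest adjusted p was 0.0675 and its highest 0.306. With DESeq2, 3 members passed, DNAJB1, DNAJB11 and DNAJC7, among 29 that it gave an adjusted p. DESeq2 called 8.62% of all genes that it gave an adjusted p, so its background was higher too. NKIRAS2 and CNP overlap DNAJC7 on the opposite strand.

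DNAJC5, the cysteine-string protein of vesicles, held 7786, 7574 and 7249 against 7368, 6517 and 7244 normalised reads. Its groups overlapped and its log2 change was -0.10 (limma adjusted p = 0.416). The endosomal DNAJC13 had a log2 change of -0.05 and DNAJC18 of -0.08. DNAJC24, of diphthamide synthesis on elongation factor eEF2, had 0.01, and DNAJC27, which carries a small GTPase domain, had 0.16. DNAJC22 held 20.4, 11 and 31 against 15.8, 10.5 and 13.9 normalised reads, and the interval of its log2 change, -1.46 to 0.46, spans 0 too.

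**Figure D3:**
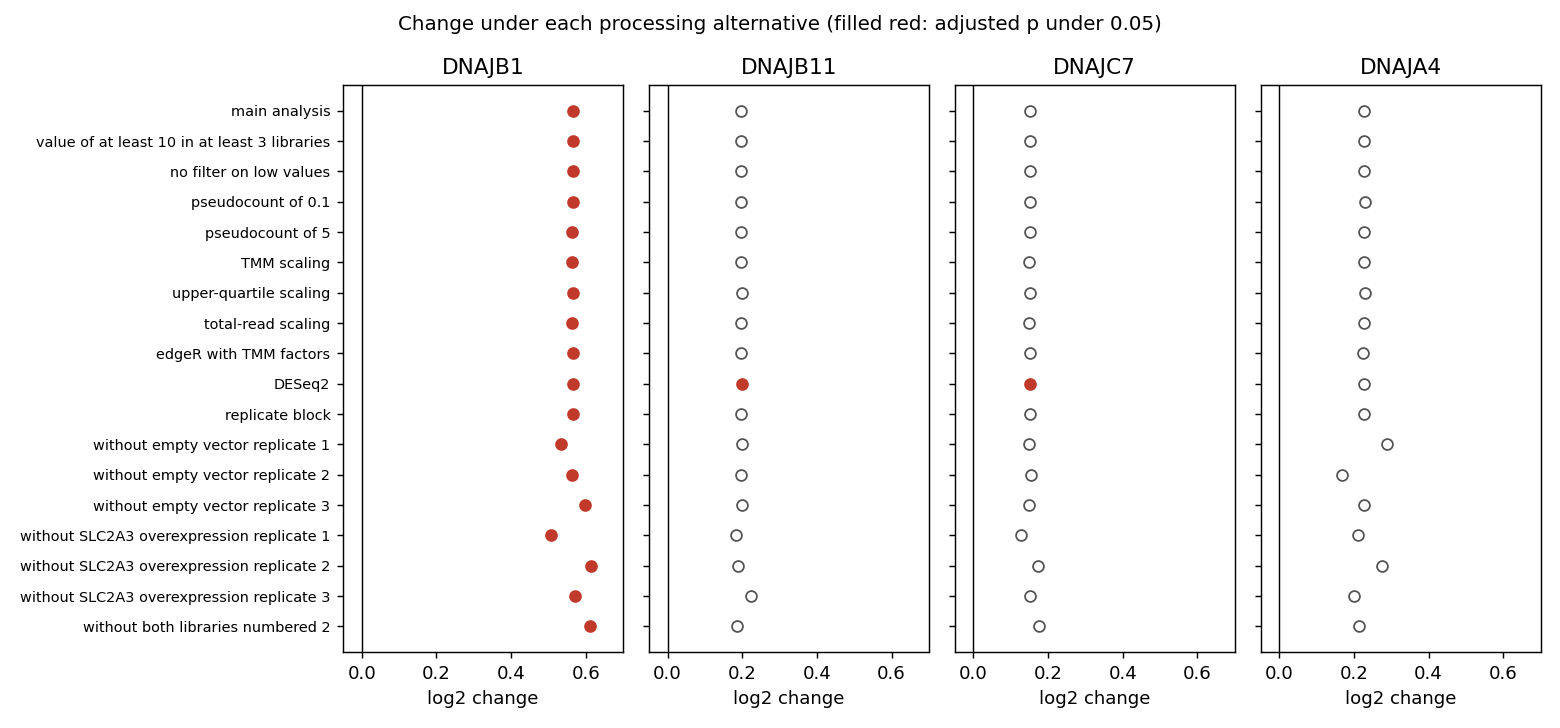
Log2 change of DNAJB1, DNAJB11, DNAJC7 and DNAJA4 in the main analysis and under 17 alternatives, with filled red points where the adjusted p was under 0.05. DNAJB1 is filled in every row, DNAJB11 and DNAJC7 only with DESeq2, and DNAJA4 in none.

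Levels of different members can be set side by side only per length, so normalised reads were divided by the length of the principal transcript in GENCODE 29. DNAJB6 was then highest, at 3286 ± 136 normalised reads per kilobase with the empty vector and 3310 ± 84.4 with SLC2A3 (SD, n = 3 per group). DNAJC8 came next, at 2852 ± 147 and 2829 ± 159, followed by DNAJA1 at 2586 ± 89.3 and 2573 ± 76.2. The difference between DNAJC8 and DNAJA1 was not tested. DNAJC7 was the fourth, at 2062 ± 7.64 and 2290 ± 72.8 normalised reads per kilobase. DNAJB1 went from 930 ± 42.3 to 1377 ± 104 normalised reads per kilobase, and with the empty vector lay between DNAJA2 at 798 ± 13.0 and DNAJA3 at 1190 ± 38.8. With SLC2A3 it lay near DNAJC5, at 1351 ± 88.2, and DNAJC2, at 1302 ± 58.4. DNAJB5, DNAJC28 and DNAJC22 were lowest, at 19.8 ± 1.45, 8.41 ± 3.50 and 4.72 ± 2.27 normalised reads per kilobase with the empty vector.

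The order depends on which length is used. Per kilobase of all merged exons of a gene, DNAJA1 was first at 2256 ± 77.9 normalised reads with the empty vector, DNAJC8 next at 1737 ± 89.7 and DNAJC5 the third at 1425 ± 51.2. DNAJB6 was at 353 ± 14.6 on that scale, rank 12 of 37, because its annotated exons sum to 14981 bases against 1609 for its principal transcript. DNAJC22, DNAJC28 and DNAJB5 were the 3 lowest on both scales.

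**Figure D4:**
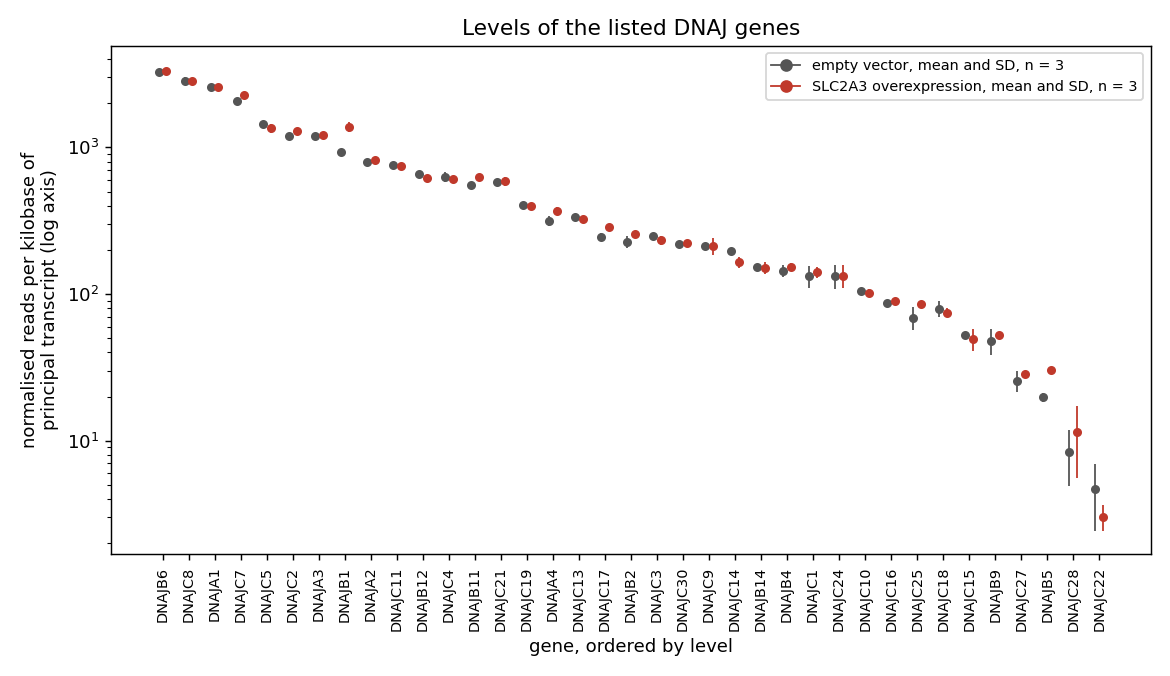
Normalised reads per kilobase of principal transcript on a log axis, mean and SD of 3 libraries per group, for the 37 DNAJ genes in order of level. The group points of most genes lie on each other, and DNAJB1 shows the clearest gap in the upper part of the order, from 930 to 1377.

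The proteins that DNAJ members act with were described from lists by role. Of 12 HSP70 genes 4 rose, 0 fell and 8 did not pass, with a median log2 change of 0.12. HSPA6, a strictly stress-inducible HSP70, held 105, 138 and 118 normalised reads with the empty vector and 842, 707 and 727 with SLC2A3. HSPA1B held 233, 186 and 211 against 517, 522 and 579 normalised reads, and HSPA1A held 1378, 1442 and 1463 against 2552, 2435 and 2450. In none of these 3 did the groups overlap, and the log2 changes were 2.65, 1.36 and 0.80, against 0.56 for DNAJB1. Reads of HSPA1A and HSPA1B may be split wrongly, because the 2 genes are almost the same in sequence. HSPA8, the constitutive HSC70, chosen after its values were seen, rose by 0.18 on the log2 scale, from 37232 ± 855 to 42055 ± 1066 normalised reads (SD, n = 3 per group; limma adjusted p = 0.00416).

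Of 16 nucleotide exchange factors and other HSP70 co-factors 0 passed in limma. For 9 co-factors the libraries of the groups did not overlap, 8 higher and 1 lower. The share was 16.3% of all tested genes and 23.7% of those with a mean of at least 100 normalised reads. Every co-factor had group means of at least 190 normalised reads. The unadjusted limma p was under 0.05 for 6, all of them higher, against 5.63% of all tested genes in that direction. In either direction it was under 0.05 for 19.9% of genes with a mean of at least 100. The median log2 change of the co-factors was 0.09. Of 14 other heat shock genes 3 rose and 0 fell, with a median of 0.08. HSPB1, the small heat shock protein, had a log2 change of 0.27 (limma adjusted p = 0.000861). HSP90AA1, the inducible cytosolic HSP90, had 0.23 and FKBP4, an HSP90-binding immunophilin, had 0.17. Of 18 ER chaperones and unfolded protein response genes 2 rose and 1 fell, with a median of 0.06. MANF, a secreted ER stress factor, had a log2 change of 0.21 (limma adjusted p = 0.0349). HSP90B1, the ER HSP90, rose by 0.15, and ERN1, the sensor IRE1, fell from 588 ± 47.0 to 449 ± 10 normalised reads, a log2 change of -0.39 (n = 3 per group, limma adjusted p = 0.0198).

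**Figure D5:**
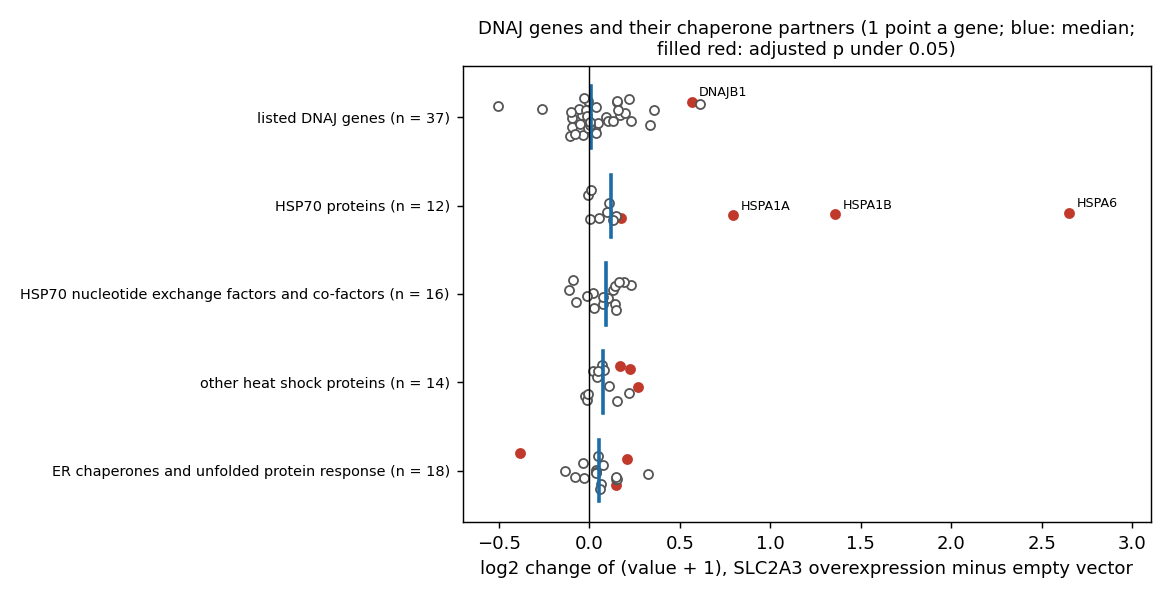
Log2 change of normalised reads plus 1 for the tested genes of the DNAJ family and of 4 lists of chaperone partners, 1 point a gene, with the median as a blue line and filled red points where the limma adjusted p was under 0.05. The DNAJ median lies at 0.01 and that of the 12 HSP70 genes at 0.12, with HSPA6 furthest right at 2.65.

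A further 12 genes that encode a J domain but are not among the 37 were counted too. Of these, 10 were tested, 0 rose and 1 fell. GAK, a J-domain kinase that uncoats clathrin vesicles with HSC70, held 7170, 7353 and 7315 normalised reads with the empty vector and 6625, 6134 and 6490 with SLC2A3. The groups did not overlap, and GAK fell from 7279 ± 96.5 to 6416 ± 253 normalised reads, 0.881-fold (SD, n = 3 per group; log2 change -0.18, SE 0.044, limma adjusted p = 0.0243).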

How the data were processed

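Gene expression was measured by RNA-seq in 6 OCI-AML3 libraries, made with a directional kit per the labels' protocols. BWA, TopHat2 and hg38 are named, without roles, in the submitters' processing notes. Annotation and the strand setting of counting are not given in the sources used here. Reads of genes overlapping on either strand therefore cannot be assigned with certainty. Over whole gene spans, introns included, 11 members overlap a gene with any reads on their own strand, and 19 on the other. The deposited values are a signal that the authors made: gene read counts divided by 1 size factor per library (0.936 to 1.08). All values were whole multiples of 1 read within 0.001 reads, and 31054462 to 35770556 reads were recovered per library; this number limits the precision of low genes. 60597 of 60660 IDs matched a symbol.

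log2(value + 1) was fitted with limma 3.58.1 (trend) in R 4.3.3, group as the only term, on genes that reached a value of 1 in 3 or more libraries, with Benjamini-Hochberg adjustment over all 28015 and a threshold of 0.05. Changes are on that scale, which understates low genes. Folds are ratios of group means. Groups came from the genotype labels and titles. The p-values set the group difference against the spread within groups. Since separate cultures are not stated, that spread may be only technical, and the p-values then do not speak for new cultures. Replicate pairs all differed beyond sampling noise (chi-square per gene 3.50 to 6.78). The functions were tested on simulated data. Alternatives were other filters, pseudocounts and scalings, edgeR 4.0.16 and DESeq2 1.42.0 on recovered reads, a replicate block, and libraries left out.

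The members and lists were chosen with earlier results of these data known. Full statistics are given for members past the threshold in the main analysis or in an alternative other than leaving libraries out; other members are given by values and intervals, and at most 3 called genes each way per partner list. Coordinates and lengths are from GENCODE 29, 1-based; promoter windows of DNAJC1, DNAJC22 and DNAJC24 were not used here. Figures were drawn with matplotlib 3.10.9.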

Additional observations from a re-analysis of the deposited data

How the results depend on the processing

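DNAJB1 passed under all 17 alternatives, and the number of DNAJ genes past the threshold was 1 in all of them except DESeq2, where it was 3, all 3 higher. Over all genes limma called 418, DESeq2 called 804, edgeR 613, and fits that left out 1 library called 188 to 466: 188 when replicate 3 of SLC2A3 overexpression was left out, 221 for replicate 3 and 264 for replicate 1 of the empty vector. The cause was not tested. The other alternatives called 284 to 584 genes. With a replicate block, DNAJB1 had a log2 change of 0.56, 1 DNAJ gene passed and 363 genes passed in all. The numbers were not found to pair the libraries, with correlations of same-numbered deviations of -0.079, -0.0022 and -0.0038 over 13277 genes. The sign of 15 members changed in at least 1 alternative, and that of 22 held in all. Leaving out 1 library moved the log2 change of DNAJA1 between -0.028 and 0.021, DNAJC8 between -0.044 and 0.035, DNAJB6 between -0.022 and 0.037, DNAJC28 between -0.020 and 0.87 and DNAJC15 between -0.21 and 0.040. Among the other members given their own alternatives, some values held their sign but moved by over 1.5 times when 1 library was left out. DNAJC5 had -0.04 without SLC2A3 overexpression replicate 2. DNAJC27 had 0.05 without empty vector replicate 1 and 0.28 without replicate 2. DNAJC22 had -0.88 without empty vector replicate 2 and -0.17 without replicate 3. DNAJC25 had 0.22 without empty vector replicate 3. Without both libraries numbered 2, the log2 change was -0.022 for DNAJB6, -0.33 for DNAJC28 and 0.027 for DNAJC15. In that fit 5 others held their sign but moved by over 1.5 times. They were DNAJC2 at 0.079, DNAJC5 at -0.040, DNAJC27 at 0.27, DNAJA1 at -0.048 and DNAJC8 at -0.063. DNAJC22 and DNAJC28, with 10 to 37 reads a library, are limited by depth. Other scalings moved the median log2 change of all genes by at most 0.0018. DESeq2 gave 8 members no adjusted p, and edgeR called 0 members besides DNAJB1.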
